A study of Mus musculus with 12 samples.

Results

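The genes described here are the transferases of phase II metabolism in the mouse kidney: UDP-glucuronosyltransferases (UGT), sulfotransferases (SULT) and glutathione S-transferases (GST). They were taken as all protein-coding genes whose symbol starts with Ugt1a, Ugt2, Ugt3a, Sult, Gsta, Gstm, Gstp, Gstt, Gstk, Gsto, Gstz or Mgst and that reached at least 1 TPM (a level per transcript length, scaled to the same total in each library) in at least 3 of 12 libraries. Of 66 such genes in the files, 44 passed and 22 did not, among 14488 genes that passed in all. Total RNA of kidneys was sequenced in 4 groups of 3 libraries. Nr1h4tm1Gonz/J mice (called knockout below), which carry a germline disruption of Nr1h4, the gene of the bile acid receptor FXR, received GW4064, a synthetic FXR agonist, or vehicle, and so did wild-type C57BL/6 mice. The series' design text gives an overnight fast before the 6 h of GW4064. The sources used here do not state age, sex, dose, litter or whether a library is 1 animal, so the p-values measure the spread between these libraries, and genotype and strain background cannot be told apart.

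Phase II enzymes attach a polar group to drugs, toxins, steroids, bilirubin and reactive lipids so that these can be excreted. UGTs transfer a sugar from a UDP-sugar, SULTs transfer sulfate from the donor PAPS, and GSTs couple glutathione to electrophiles, including aldehydes formed by lipid peroxidation. In the kidney many of these enzymes are made in the proximal tubule, and several GST and UGT genes are known targets of the transcription factors NRF2 and AHR and of nuclear receptors.

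The libraries held 2.86 to 4.27 mapped gigabases, and 16693 to 17186 genes had a value above 0. Nr1h4 itself had 105, 131 and 134 TPM in knockout GW4064 kidneys, 120, 116 and 113 in knockout vehicle kidneys, 189, 206 and 242 in wild-type GW4064 kidneys and 217, 267 and 249 in wild-type vehicle kidneys. Knockout levels lay below every wild-type level but far from 0, and a level summed over a gene can include transcripts from outside a disrupted stretch. The 19 proximal tubule markers that checked the tissue label summed to 66106 to 82760 TPM per library. Of 9 adrenal markers, 4 (Cyp11b1, Cyp11b2, Th and Dbh) were at 0 in every library. Of 11 liver markers, only 1, Cyp7a1, was at 0 in every library, and 4, with Cyp7a1 among them, stayed under 1 TPM. The liver markers summed to 129 to 251 TPM per library. In whole tissue, fewer cells of a type and less RNA per cell cannot be told apart.

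The 44 genes spanned a wide range of levels. Together they made up 0.843% to 0.984% of all TPM in a library. Ugt3a2 (mean 1926 TPM over 12 libraries), Sult1d1 (1281 TPM) and Ugt2b38 (987 TPM) held 47.1% of the summed level. A mean of at least 100 TPM was reached by 19 genes, 12 lay between 10 and 100 TPM and 13 lay under 10 TPM. By family, 15 of 20 UGT genes, 6 of 21 SULT genes, 21 of 22 cytosolic and mitochondrial GST genes and 2 of 3 microsomal GST genes passed the filter. Of the genes that passed, Gstp3 and Sult2b1 lay nearest the threshold, with at least 1 TPM in 4 libraries each. None of the 22 genes that did not pass reached 1 TPM in any library, and the highest value among them was 0.496 TPM, of Mgst2.

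**Figure D1:**
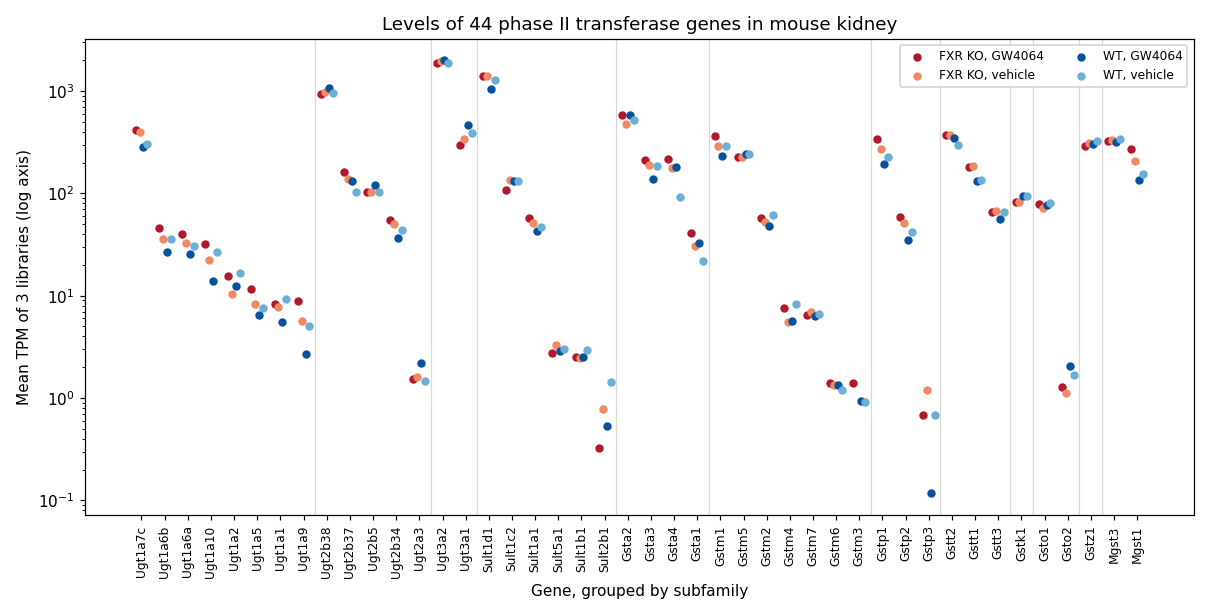
Mean TPM of 3 libraries (log axis) for each of the 44 genes, grouped by subfamily, with 1 point per group. Ugt3a2, Sult1d1 and Ugt2b38 stand at the top, and the knockout vehicle mean of Gstm3, which is 0, cannot be drawn.

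Differences between genotypes under GW4064 were the most numerous, and nearly all of them were increases. In knockout GW4064 kidneys 17 of the 44 genes were higher and 1 was lower than in wild-type GW4064 kidneys, which is 40.9% of the 44, against 18.5% of all tested genes (7.08% higher and 11.4% lower). Among the 17, 7 were Ugt1a genes of 1 locus and 2 were Gstp1 and Gstp2. The transcripts within each of these sets share stretches, so the 17 are not separate measurements. On vehicle 7 genes were higher and 1 was lower in the knockout, which is 18.2%, against 12.9% of all genes (3.19% higher and 9.73% lower). GW4064 in wild-type mice left 1 gene higher and 5 lower than vehicle, which is 13.6%, against 4.80% of all genes (2.48% higher and 2.32% lower). GW4064 in knockout mice changed 0 of the 44 by limma's test, against 0.0138% of all genes (2 genes), while 12 of the 44 and 1560 of all genes had an unadjusted p under 0.05. The GW4064 effect itself differed between genotypes for 5 of the 44 (11.4%, against 3.19% of all genes, 1.47% with a more positive and 1.72% with a more negative effect in the knockout).

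For the knockout against the wild type, the median log2 change of the 44 genes was 0.28 under GW4064 and 0.04 on vehicle, beside -0.03 and -0.09 over all tested genes. For GW4064 against vehicle the median was 0.11 in the knockout and -0.11 in the wild type, beside 0.02 and -0.03 over all genes. These comparisons share libraries, so their values are not independent of each other. The count on vehicle fell to 5 genes without knockout vehicle library 2 or wild-type vehicle library 1 or 2, while the count under GW4064 ranged over 14 to 19 when each library was left out in turn. Of all genes called, the share that was higher was 38.3% for the knockout under GW4064, 24.7% for the knockout on vehicle, 51.7% for GW4064 in the wild type and 46.1% for the difference in GW4064 effect. With median-of-ratios scaling those shares were 48.6%, 61.3%, 67.0% and 27.6%. Among the 44 genes that scaling gave 17 higher and 1 lower in the knockout under GW4064, 7 higher and 0 lower on vehicle, and 2 higher and 1 lower for GW4064 in the wild type.

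**Figure D2:**
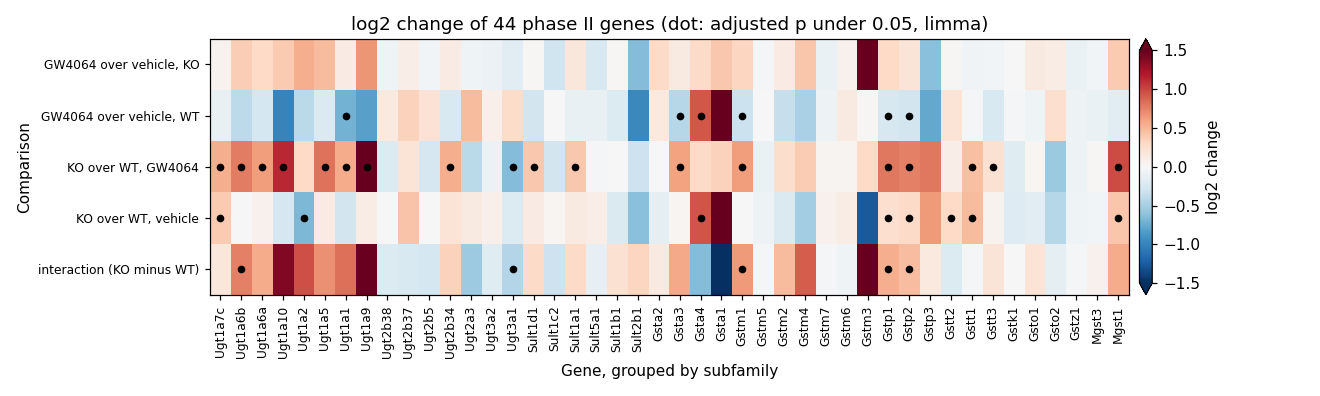
log2 change of the 44 genes, grouped by subfamily, in 5 comparisons, with a dot where limma's adjusted p is under 0.05 and a color scale that ends at 1.5 in either direction. The row for knockout over wild type under GW4064 holds 18 dots, 17 of them on increases, and the row for GW4064 over vehicle in the knockout holds 0.

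Alpha-class GSTs conjugate products of lipid peroxidation. Gsta4 (chr9:78191966-78209349, mm10), the isoform most active on 4-hydroxynonenal, was the 1 gene of the 44 that rose with GW4064 in the wild type, and it was also higher in the knockout on vehicle. It had 217.3, 210.7 and 216.9 TPM in knockout GW4064 kidneys, 180.5, 162.2 and 186.7 in knockout vehicle kidneys, 223.7, 171.9 and 140.2 in wild-type GW4064 kidneys and 98.1, 100 and 78.7 in wild-type vehicle kidneys. The 3 wild-type vehicle values lay below all 9 others. On the log2 scale the change with GW4064 in the wild type was 0.93 ± 0.14 (adjusted p = 0.00254) and that of the knockout on vehicle was 0.94 ± 0.14 (adjusted p = 0.00197), each with its SE. With GW4064 in the knockout it was 0.29 ± 0.14 (adjusted p = 0.503), and the difference between those GW4064 effects was -0.65 ± 0.20 (adjusted p = 0.108).

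Gsta3 (chr1:21240585-21265575), which detoxifies aflatoxin epoxide in mice, had 238.1, 191.1 and 204.6 TPM in knockout GW4064 kidneys, 199.8, 172.9 and 201.0 in knockout vehicle kidneys, 149.6, 149.4 and 118.8 in wild-type GW4064 kidneys and 197.2, 191.1 and 174.2 in wild-type vehicle kidneys. The wild-type GW4064 libraries were the 3 lowest of the 12. Gsta3 fell by 0.43 ± 0.10 (adjusted p = 0.0358) with GW4064 in the wild type and was higher in the knockout under GW4064 by 0.60 ± 0.10 (adjusted p = 0.00199). The difference in GW4064 effect missed the threshold, at 0.57 ± 0.15 (adjusted p = 0.0606). Gsta2, the most abundant alpha isoform, had 592.6, 515.3 and 640.0 TPM in knockout GW4064 kidneys, 462.1, 476.3 and 488.3 in knockout vehicle kidneys, 623.3, 642.6 and 480.7 in wild-type GW4064 kidneys and 543.3, 527.3 and 495.3 in wild-type vehicle kidneys. It passed in no comparison, and its GW4064 change was 0.29 ± 0.10 (adjusted p = 0.335) in the knockout and 0.15 ± 0.10 (adjusted p = 0.475) in the wild type. Gsta1, which shares 19.8% of its 100-base transcript stretches with Gsta2, had 41.6, 39.1 and 42.2 TPM in knockout GW4064 kidneys, 28.3, 31.8 and 32.5 in knockout vehicle kidneys, 34.7, 38.5 and 25.2 in wild-type GW4064 kidneys and 32.9, 32.6 and 0 in wild-type vehicle kidneys. The single 0 beside values above 25 may be a failed estimate, and Gsta1 passed in no comparison.

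Among mu-class GSTs, a family of detoxifying enzymes clustered on chromosome 3, 1 of 7 genes was called. Its calls came in the knockout under GW4064, with GW4064 in the wild type and for the difference in GW4064 effect. Of all tested genes 18.5%, 4.80% and 3.19% were called there, in the same order. Gstm1 (chr3:108012250-108017973), the most abundant of them, had 365.3, 327.3 and 394.3 TPM in knockout GW4064 kidneys, 266.9, 313.0 and 288.0 in knockout vehicle kidneys, 230.0, 229.1 and 238.8 in wild-type GW4064 kidneys and 290.6, 269.4 and 314.3 in wild-type vehicle kidneys. Every knockout GW4064 value lay above all others and every wild-type GW4064 value below all others, with the vehicle groups between them. Gstm1 was higher in the knockout under GW4064 by 0.63 ± 0.08 (adjusted p = 1.7e-04) and fell by 0.32 ± 0.08 (adjusted p = 0.0357) with GW4064 in the wild type. On vehicle the genotypes differed by -0.01 ± 0.08 (adjusted p = 0.938). Gstm5, which overlaps 4933431E20Rik on the opposite strand, had 229.4, 234.9 and 215.3 TPM in knockout GW4064 kidneys, 228.1, 224.3 and 235.5 in knockout vehicle kidneys, 249.3, 244.9 and 236.4 in wild-type GW4064 kidneys and 246.1, 235.4 and 245.1 in wild-type vehicle kidneys, with no call. Gstm2 averaged 57.4 ± 9.25 TPM in knockout GW4064 kidneys, 52.7 ± 8.24 in knockout vehicle kidneys, 47.5 ± 3.6 in wild-type GW4064 kidneys and 61 ± 6.54 in wild-type vehicle kidneys (SD, n = 3 each), also without a call. Gstm4, Gstm6 and Gstm7 stayed under 10 TPM in every library. Gstm3 had 0, 1.91 and 2.29 TPM in knockout GW4064 kidneys, 0, 0 and 0 in knockout vehicle kidneys, 0, 1.43 and 1.37 in wild-type GW4064 kidneys and 1.19, 1.54 and 0 in wild-type vehicle kidneys.

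Pi-class GSTs separated both genotypes and, in part, both treatments. Gstp1 (chr19:4035411-4037912), which conjugates electrophiles and binds stress kinases, had 357.1, 340.5 and 312.7 TPM in knockout GW4064 kidneys, 254.2, 278.8 and 285.1 in knockout vehicle kidneys, 199.6, 190.2 and 192.1 in wild-type GW4064 kidneys and 225.6, 220.6 and 240.2 in wild-type vehicle kidneys. Its neighbor Gstp2 (chr19:4040288-4042221) had 63.4, 57.2 and 56.1 TPM in knockout GW4064 kidneys, 50.3, 48.6 and 56.1 in knockout vehicle kidneys, 36.1, 34.7 and 33.7 in wild-type GW4064 kidneys and 40.4, 43.5 and 42.2 in wild-type vehicle kidneys. The 4 groups of Gstp1 did not overlap, in the descending order knockout GW4064, knockout vehicle, wild-type vehicle and wild-type GW4064. Gstp2 had the same order of means, and its groups met only between the knockout GW4064 and knockout vehicle kidneys. Gstp1 was higher in the knockout by 0.79 ± 0.06 (adjusted p = 4.3e-06) under GW4064 and by 0.25 ± 0.06 (adjusted p = 0.017) on vehicle. Gstp2 was higher in the knockout by 0.75 ± 0.06 (adjusted p = 1.4e-05) under GW4064 and by 0.29 ± 0.06 (adjusted p = 0.0145) on vehicle. The vehicle call of Gstp1 was lost without wild-type vehicle library 1 or 2 or knockout vehicle library 2 or 3, and that of Gstp2 without wild-type vehicle library 1 (adjusted p up to 0.0582 and 0.0563). With GW4064 in the wild type Gstp1 fell by 0.24 ± 0.06 (adjusted p = 0.0384) and Gstp2 fell by 0.27 ± 0.06 (adjusted p = 0.0362). GW4064 in the knockout gave 0.30 ± 0.06 (adjusted p = 0.13) for Gstp1 and 0.19 ± 0.06 (adjusted p = 0.317) for Gstp2, neither past the threshold.

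Gstp1 shares 38.4% of its 100-base transcript stretches with other members and Gstp2 shares 35.9%, so reads could be split between them in different ways. The summed level of the pi class depends less on that split, though TPM is scaled by transcript length, so the sum can still shift. It was 421, 398 and 370 TPM in knockout GW4064 kidneys, 306, 328 and 342 in knockout vehicle kidneys, 236, 225 and 226 in wild-type GW4064 kidneys and 267, 265 and 282 in wild-type vehicle kidneys. The 4 groups of this sum did not overlap, and that also held with median-of-ratios scaling, quantile normalization or FPKM. Gstp3 reached at most 1.82 TPM.

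The stretches before the pi-class starts are shown because Gstp1 and Gstp2 moved together and hold the same 9 letters there. They are the 250 bases upstream of the RefSeq start on GRCm38.p6, both on the minus strand, at chr19:4037913-4038162 for Gstp1 and chr19:4042222-4042471 for Gstp2. Capitals mark matches on either strand to TGAGNNNGC, a close variant of TGACNNNGC, the core of the antioxidant response element that NRF2 binds with small Maf proteins.
Gstp1: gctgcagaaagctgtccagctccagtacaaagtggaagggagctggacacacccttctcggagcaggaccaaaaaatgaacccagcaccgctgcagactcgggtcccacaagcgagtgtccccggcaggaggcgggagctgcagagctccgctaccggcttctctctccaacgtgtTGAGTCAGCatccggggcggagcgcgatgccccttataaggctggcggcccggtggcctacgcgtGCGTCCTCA
Gstp2: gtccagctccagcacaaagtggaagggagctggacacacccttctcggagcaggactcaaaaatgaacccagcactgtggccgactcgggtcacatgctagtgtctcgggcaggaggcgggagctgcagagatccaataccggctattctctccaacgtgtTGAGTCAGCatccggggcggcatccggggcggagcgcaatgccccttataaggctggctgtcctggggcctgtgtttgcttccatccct
The word TGAGTCAGC starts at position -74 from the start of Gstp1 and at -89 from that of Gstp2. The longest run of identical bases in both windows is 43 bases long.

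Theta-class GSTs act on small halogenated compounds. Gstt1 (chr10:75783813-75798584) had 177.5, 175.9 and 188.8 TPM in knockout GW4064 kidneys, 188.3, 175.3 and 197.6 in knockout vehicle kidneys, 144.9, 125.8 and 125.8 in wild-type GW4064 kidneys and 138.7, 140.3 and 122.8 in wild-type vehicle kidneys. All 6 knockout values lay above all 6 wild-type values. Gstt1 was higher in the knockout by 0.45 ± 0.07 (adjusted p = 9.4e-04) under GW4064 and by 0.48 ± 0.07 (adjusted p = 0.00173) on vehicle. GW4064 gave -0.05 ± 0.07 (adjusted p = 0.854) in the knockout and -0.02 ± 0.07 (adjusted p = 0.919) in the wild type. Gstt2 (chr10:75831845-75834881), the most abundant theta isoform, had 357.1, 380.9 and 374.2 TPM in knockout GW4064 kidneys, 340.8, 407.5 and 354.9 in knockout vehicle kidneys, 325.9, 353.0 and 355.7 in wild-type GW4064 kidneys and 303.2, 286.7 and 303.2 in wild-type vehicle kidneys. The wild-type vehicle values were the 3 lowest. Gstt2 was higher in the knockout on vehicle by 0.30 ± 0.06 (adjusted p = 0.0117), and under GW4064 the genotypes differed by 0.10 ± 0.06 (adjusted p = 0.283). GW4064 in the wild type gave 0.21 ± 0.06 (adjusted p = 0.0859) for Gstt2, which passed when only the groups compared were fitted (adjusted p = 0.0403).

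Gstt3 (chr10:75774117-75781422) had 65.6, 65.3 and 65.8 TPM in knockout GW4064 kidneys, 59.8, 73.2 and 70.3 in knockout vehicle kidneys, 57.1, 55.6 and 54.4 in wild-type GW4064 kidneys and 67.5, 65.3 and 63.4 in wild-type vehicle kidneys, with the wild-type GW4064 libraries the 3 lowest. It was higher in the knockout under GW4064 by 0.23 ± 0.06 (adjusted p = 0.0253), a call that was lost without any 1 of the 6 GW4064 libraries (adjusted p up to 0.0787). GW4064 in the wild type gave -0.23 ± 0.06 (adjusted p = 0.0685) for Gstt3, which passed when only the groups compared were fitted (adjusted p = 0.0246). The theta genes lie 13.6 to 13.7 megabases before Nr1h4 on chromosome 10. For them, strain sequence carried along with the disrupted allele and the loss of FXR cannot be told apart.

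Zeta, kappa and omega GSTs passed in no comparison. Gstz1, the maleylacetoacetate isomerase of tyrosine breakdown, which overlaps Pomt2 on the opposite strand, had 263.6, 302.3 and 302.5 TPM in knockout GW4064 kidneys, 307.3, 313.8 and 308.1 in knockout vehicle kidneys, 316.6, 295.0 and 304.9 in wild-type GW4064 kidneys and 330.6, 324.2 and 312.5 in wild-type vehicle kidneys. Gstk1, a mitochondrial and peroxisomal isoform, had 76.7, 83.9 and 88.6 TPM in knockout GW4064 kidneys, 81.2, 79.7 and 88.6 in knockout vehicle kidneys, 98.4, 92.5 and 90.8 in wild-type GW4064 kidneys and 101.3, 95.7 and 88 in wild-type vehicle kidneys. Under GW4064 its knockout values lay below all wild-type values, with differences of -0.18 ± 0.07 (adjusted p = 0.0927) under GW4064 and -0.19 ± 0.07 (adjusted p = 0.085) on vehicle. Gsto1, a thioltransferase, had 93.4, 73.9 and 70.8 TPM in knockout GW4064 kidneys, 66, 71.6 and 77.6 in knockout vehicle kidneys, 78.5, 76.2 and 76.1 in wild-type GW4064 kidneys and 78.3, 82.6 and 80.2 in wild-type vehicle kidneys, and Gsto2 stayed under 3 TPM.

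Mgst1 (chr6:138140537-138156754), a membrane-bound GST and glutathione peroxidase, had 288.2, 223.3 and 300.5 TPM in knockout GW4064 kidneys, 183.5, 217.4 and 214.5 in knockout vehicle kidneys, 139.6, 145.3 and 123.9 in wild-type GW4064 kidneys and 151.8, 150.2 and 156.6 in wild-type vehicle kidneys. All 6 knockout values lay above all 6 wild-type values. Mgst1 was higher in the knockout by 0.98 ± 0.10 (adjusted p = 6.9e-05) under GW4064 and by 0.42 ± 0.10 (adjusted p = 0.0237) on vehicle. The vehicle call was lost without wild-type vehicle library 1, 2 or 3 or knockout vehicle library 2 or 3 (adjusted p up to 0.0797). GW4064 in the knockout gave 0.39 ± 0.10 (adjusted p = 0.238), and without knockout GW4064 library 2, the lowest of its group, 0.52 (adjusted p = 0.0291). Mgst3, the more abundant microsomal enzyme, had 338.2, 315.7 and 318.4 TPM in knockout GW4064 kidneys, 336.1, 338.1 and 322.0 in knockout vehicle kidneys, 313.8, 331.5 and 312.9 in wild-type GW4064 kidneys and 334.1, 367.8 and 326.4 in wild-type vehicle kidneys, with no call.

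Gsta3 and Mgst1, which also differed between genotypes under GW4064, hold the form TGACNNNGC itself (capitals) in the 250 bases upstream of a RefSeq start on GRCm38.p6. The windows lie on the plus strand at chr1:21240335-21240584 for Gsta3 and chr6:138140277-138140526 for the first of the Mgst1 starts, where the match is on the opposite strand.
Gsta3: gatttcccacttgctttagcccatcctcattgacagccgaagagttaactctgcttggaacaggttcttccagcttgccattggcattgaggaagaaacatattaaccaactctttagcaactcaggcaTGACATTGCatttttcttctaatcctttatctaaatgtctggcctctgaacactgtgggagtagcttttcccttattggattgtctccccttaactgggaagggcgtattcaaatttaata
Mgst1: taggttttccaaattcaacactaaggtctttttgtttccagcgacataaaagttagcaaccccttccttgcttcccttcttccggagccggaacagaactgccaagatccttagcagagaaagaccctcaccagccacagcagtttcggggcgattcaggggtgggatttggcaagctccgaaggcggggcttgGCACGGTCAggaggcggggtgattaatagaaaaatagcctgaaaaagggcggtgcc
The match starts at position -121 from the start of Gsta3 and at -56 from that of Mgst1. Of the 44 genes, 40 were in the RefSeq promoter table. TGACNNNGC was present on either strand in 4 of the 40 (Gsta3, Gstm5, Gstm7 and Mgst1), which is 10%, against 11.5% of 27025 genes. Of these 4, Gstm5 and Gstm7 were called in no comparison. TGAGNNNGC, a form added after the sequences were seen, was present in 9 of the 40 (22.5%, against 16.3% of genes), and either form in 12 of the 40 (30%, against 25.7%). The inverted repeat of AGGTCA and TGACCT with 1 base between them, which FXR is known to bind, was searched as exact letters. It was in 0 of the 40 and in 2 of the 27025 genes. So rare a word would hardly be met in 40 genes, so its absence tells nothing about FXR sites. TNGCGTG, the core letters for AHR, was in 3 of the 40 (7.5%, against 4.76%). These are matches of letters in a short window.

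**Figure D3:**
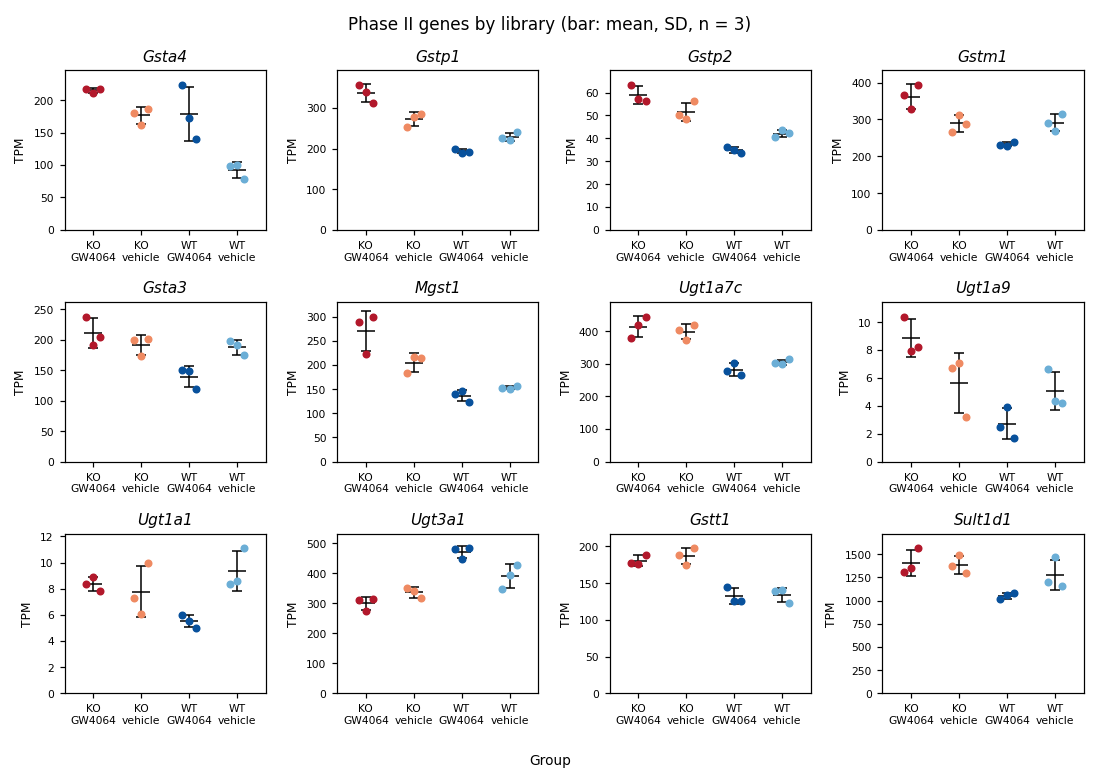
TPM by library for 12 genes, with each panel starting at 0, points for the 3 libraries of a group, and bars for mean and SD. Gstp1, Gstm1 and Mgst1 are highest in the knockout GW4064 libraries, Gstt1 separates the genotypes, and Gsta4 is lowest in the 3 wild-type vehicle libraries.

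UGT genes of the Ugt1a locus on chromosome 1 each have their own first exon and share the downstream exons, and their enzymes glucuronidate bilirubin, phenols and drugs. In the knockout under GW4064, 7 of the 8 Ugt1a genes were higher and 0 lower, against 7.08% higher and 11.4% lower of all tested genes. The median log2 change of the 8 was 0.70. Ugt1a7c (chr1:88095001-88220002) carried most of the locus. It had 380.4, 418.7 and 445.9 TPM in knockout GW4064 kidneys, 405.0, 374.9 and 418.7 in knockout vehicle kidneys, 276.9, 303.9 and 267.0 in wild-type GW4064 kidneys and 302.2, 299.0 and 314.5 in wild-type vehicle kidneys. All 6 knockout values lay above all 6 wild-type values. Ugt1a7c was higher in the knockout by 0.55 ± 0.07 (adjusted p = 1.5e-04) under GW4064 and by 0.39 ± 0.07 (adjusted p = 0.00397) on vehicle.

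Ugt1a6a and Ugt1a6b encode enzymes for planar phenols. Ugt1a6b (chr1:88103257-88218998) had 46.3, 49.2 and 43.1 TPM in knockout GW4064 kidneys, 34.9, 41.2 and 31 in knockout vehicle kidneys, 27.8, 29.2 and 24 in wild-type GW4064 kidneys and 34.2, 40.3 and 32.2 in wild-type vehicle kidneys. Ugt1a6a (chr1:88134809-88220002) had 42.3, 35.6 and 42.9 TPM in knockout GW4064 kidneys, 34.5, 34 and 29.2 in knockout vehicle kidneys, 28.2, 27 and 22.3 in wild-type GW4064 kidneys and 30.9, 30.9 and 30.7 in wild-type vehicle kidneys. For both genes the knockout GW4064 group was the highest and the wild-type GW4064 group the lowest, without overlap with any other group. In the knockout under GW4064 Ugt1a6b was higher by 0.77 ± 0.11 (adjusted p = 6.8e-04) and Ugt1a6a by 0.63 ± 0.10 (adjusted p = 9.5e-04). On vehicle the differences were 0.00 ± 0.11 (adjusted p = 0.992) for Ugt1a6b and 0.07 ± 0.10 (adjusted p = 0.641) for Ugt1a6a.

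Ugt1a1 (chr1:88211959-88220002), the bilirubin transferase, had 8.38, 8.92 and 7.8 TPM in knockout GW4064 kidneys, 7.3, 6.1 and 9.96 in knockout vehicle kidneys, 5.99, 5.52 and 5.03 in wild-type GW4064 kidneys and 8.36, 8.62 and 11.1 in wild-type vehicle kidneys. The wild-type GW4064 values were the 3 lowest of the 12. Ugt1a1 fell by 0.71 ± 0.16 (adjusted p = 0.0277) with GW4064 in the wild type. It was higher in the knockout under GW4064 by 0.56 ± 0.16 (adjusted p = 0.0306), a call lost without any 1 of the 6 GW4064 libraries (adjusted p up to 0.0945). Ugt1a9 (chr1:88070779-88220002), known in humans for phenolic drugs, had 10.4, 7.91 and 8.22 TPM in knockout GW4064 kidneys, 6.69, 7.1 and 3.19 in knockout vehicle kidneys, 2.5, 3.93 and 1.72 in wild-type GW4064 kidneys and 6.6, 4.32 and 4.21 in wild-type vehicle kidneys. The knockout GW4064 values were the 3 highest. Ugt1a9 was higher in the knockout under GW4064 by 1.59 ± 0.30 (adjusted p = 0.00381).

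Ugt1a10 (chr1:88055411-88220002), known in humans as an intestinal isoform, had 49.3, 19 and 27.8 TPM in knockout GW4064 kidneys, 23.7, 22.5 and 21.3 in knockout vehicle kidneys, 17.8, 16.1 and 8.05 in wild-type GW4064 kidneys and 26.7, 26.7 and 27.4 in wild-type vehicle kidneys. Ugt1a5 (chr1:88166012-88220002) had 12.1, 9.88 and 12.7 TPM in knockout GW4064 kidneys, 9.24, 8.44 and 6.94 in knockout vehicle kidneys, 8.23, 5.36 and 5.79 in wild-type GW4064 kidneys and 7.82, 6.53 and 8.14 in wild-type vehicle kidneys. Every knockout GW4064 value lay above every wild-type GW4064 value for both genes. In the knockout under GW4064 Ugt1a10 was higher by 1.13 ± 0.31 (adjusted p = 0.0264) and Ugt1a5 by 0.81 ± 0.16 (adjusted p = 0.00526). The Ugt1a10 call was lost without wild-type GW4064 library 3 or knockout GW4064 library 1 or 3 (adjusted p up to 0.0969). Ugt1a2 (chr1:88200611-88220002) had 17.7, 12 and 16.6 TPM in knockout GW4064 kidneys, 10.6, 8.45 and 11.8 in knockout vehicle kidneys, 15.2, 12.6 and 9.62 in wild-type GW4064 kidneys and 16.3, 15.2 and 18.2 in wild-type vehicle kidneys. It went the other way on vehicle, where all 3 knockout values lay below the wild-type ones and the change was -0.67 ± 0.18 (adjusted p = 0.0344). That call was lost in 10 of 25 other settings, with adjusted p up to 0.113, among them median-of-ratios scaling and leaving out any 1 wild-type vehicle library or knockout vehicle library 1 or 2.

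Transcripts of the Ugt1a genes share 52.3% to 95.7% of their 100-base stretches with other members, so the split of the locus into genes is uncertain. Summed over the 8 genes the level was 567, 561 and 605 TPM in knockout GW4064 kidneys, 532, 503 and 532 in knockout vehicle kidneys, 383, 404 and 344 in wild-type GW4064 kidneys and 433, 432 and 446 in wild-type vehicle kidneys. The 4 groups of this sum did not overlap under any of the 4 scalings used, in the same order as for Gstp1.

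Of 5 Ugt2 genes, whose enzymes act on steroids and acids, 1 was called. The call was in the knockout under GW4064 only, where 18.5% of all tested genes were called. Ugt2b34 (chr5:86889770-86906937) had 58.9, 48.9 and 55.3 TPM in knockout GW4064 kidneys, 50.4, 47.7 and 51.5 in knockout vehicle kidneys, 37.5, 37 and 35.9 in wild-type GW4064 kidneys and 46.9, 46.7 and 36.9 in wild-type vehicle kidneys. In each treatment the knockout values lay above the wild-type ones. It was higher in the knockout under GW4064 by 0.55 ± 0.09 (adjusted p = 0.00143), and on vehicle the difference was 0.20 ± 0.09 (adjusted p = 0.157). Ugt2b38, the most abundant Ugt2 gene, had 793.5, 1049.2 and 966.6 TPM in knockout GW4064 kidneys, 1015.7, 946.6 and 941.0 in knockout vehicle kidneys, 910.2, 1123.4 and 1200.9 in wild-type GW4064 kidneys and 957.6, 956.9 and 982.8 in wild-type vehicle kidneys, with overlap in each comparison and no call. Ugt2b37 had 76.3, 219.4 and 191.7 TPM in knockout GW4064 kidneys, 164.4, 122.1 and 129.5 in knockout vehicle kidneys, 96.2, 165.4 and 133.2 in wild-type GW4064 kidneys and 85.3, 108.6 and 113.4 in wild-type vehicle kidneys, and its knockout GW4064 libraries alone spanned the whole range.

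Ugt3a enzymes in humans use UDP-N-acetylglucosamine or UDP-glucose in place of UDP-glucuronic acid. Ugt3a1 (chr15:9279829-9315036) was the only one of the 44 that was lower in the knockout under GW4064. It had 311.0, 273.6 and 312.6 TPM in knockout GW4064 kidneys, 349.3, 341.3 and 316.5 in knockout vehicle kidneys, 479.3, 448.3 and 482.7 in wild-type GW4064 kidneys and 348.3, 395.0 and 427.4 in wild-type vehicle kidneys. The wild-type GW4064 values were the 3 highest of the 12 and the knockout GW4064 values the 3 lowest. The change in the knockout was -0.65 ± 0.08 (adjusted p = 1.2e-04) under GW4064 and -0.21 ± 0.08 (adjusted p = 0.0843) on vehicle. GW4064 in the wild type gave 0.27 ± 0.08 (adjusted p = 0.0677). Its neighbor Ugt3a2 (chr15:9335598-9370870), the most abundant of the 44, had 1749.3, 1833.3 and 2003.8 TPM in knockout GW4064 kidneys, 2075.8, 1934.3 and 1941.7 in knockout vehicle kidneys, 2026.6, 1924.7 and 2005.5 in wild-type GW4064 kidneys and 1805.8, 1884.9 and 1931.4 in wild-type vehicle kidneys and passed in no comparison.

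Of the SULT genes 2 of 6 were called, in the knockout under GW4064 only, against 18.5% of all tested genes. Sult1d1 (chr5:87554650-87569006), which sulfates catecholamines in mice, had 1308.1, 1352.1 and 1565.5 TPM in knockout GW4064 kidneys, 1373.2, 1487.2 and 1298.4 in knockout vehicle kidneys, 1016.6, 1061.5 and 1082.8 in wild-type GW4064 kidneys and 1201.4, 1466.4 and 1162.0 in wild-type vehicle kidneys. The wild-type GW4064 values were the 3 lowest of the 12. Sult1d1 was higher in the knockout under GW4064 by 0.41 ± 0.09 (adjusted p = 0.00849), and GW4064 in the wild type gave -0.27 ± 0.09 (adjusted p = 0.127). Sult1a1 (chr7:126672870-126676357), a phenol sulfotransferase, had 58.1, 54.3 and 59.4 TPM in knockout GW4064 kidneys, 46.3, 59.2 and 47.7 in knockout vehicle kidneys, 47.1, 38.1 and 43.8 in wild-type GW4064 kidneys and 50.9, 45.6 and 43.1 in wild-type vehicle kidneys. All knockout GW4064 values lay above all wild-type GW4064 values. Sult1a1 was higher in the knockout under GW4064 by 0.41 ± 0.10 (adjusted p = 0.0155), a call lost without wild-type GW4064 library 2 or knockout GW4064 library 3 (adjusted p up to 0.0615). Sult1c2 averaged 109 ± 11.2 TPM in knockout GW4064 kidneys, 136 ± 21.2 in knockout vehicle kidneys, 132 ± 8.09 in wild-type GW4064 kidneys and 131 ± 2.46 in wild-type vehicle kidneys (SD, n = 3 each), without a call. Sult1b1, Sult2b1 and Sult5a1 stayed under 4 TPM in every library.

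The test of whether the GW4064 effect differed between genotypes gave 4 genes with a more positive effect in the knockout and 1 with a more negative one. The difference, knockout effect minus wild-type effect on the log2 scale, was 0.64 ± 0.11 (adjusted p = 0.00941) for Gstm1, 0.54 ± 0.08 (adjusted p = 0.00512) for Gstp1, 0.46 ± 0.09 (adjusted p = 0.0214) for Gstp2 and 0.76 ± 0.16 (adjusted p = 0.0264) for Ugt1a6b. For Ugt3a1 it was -0.44 ± 0.11 (adjusted p = 0.0495), a call lost in 17 of 24 other settings. All 8 Ugt1a genes had a positive difference, as did 8714 of all 14488 tested genes, and 1 of the 8 passed. The 8 share downstream exons, so their signs are not separate observations. The differences of Gstm1 and Gstp1 passed in each of the 24 other settings, while those of Gstp2 and Ugt1a6b were lost in 3 and 9. Without knockout GW4064 library 2 the count of genes was 9, and without knockout vehicle library 1 it was 2. It was 3 without knockout GW4064 library 1, wild-type GW4064 library 1, or wild-type vehicle library 1 or 2.

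**Figure D4:**
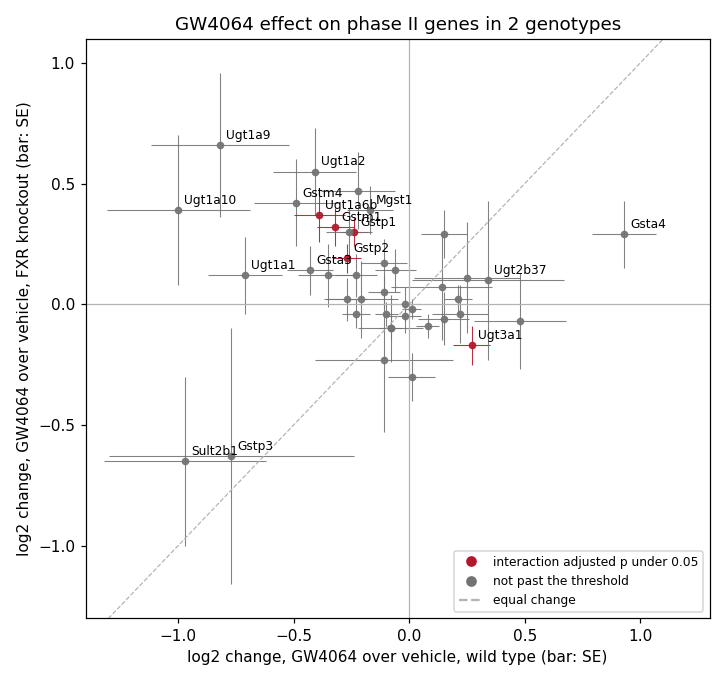
log2 change with GW4064 in the knockout (vertical axis) against the same in the wild type (horizontal axis) for 42 genes, with SE bars and without Gsta1 and Gstm3, which hold values at 0. Red points mark the 5 genes whose GW4064 effect differed between genotypes, of which Gstm1, Gstp1, Gstp2 and Ugt1a6b lie above 0 in the knockout and below 0 in the wild type.

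Of the 6 calls for GW4064 in the wild type, that of Gsta4 held in each of 25 other settings (adjusted p up to 0.0222). The calls of Gsta3, Gstm1, Gstp1, Gstp2 and Ugt1a1 were all lost without wild-type GW4064 library 1, 2 or 3, which left 1 call each time. The count was 2 without wild-type vehicle library 1 or 2 and 3 without wild-type vehicle library 3. With a fat marker score as covariate it was 1, and with median-of-ratios scaling the calls of Gsta3, Gstm1, Gstp1 and Gstp2 were lost. The fat markers summed to 170, 257 and 194 TPM in wild-type GW4064 kidneys and 216, 213 and 219 in wild-type vehicle kidneys, and 0 of 8 tested passed. Of these 8, 6 had a negative and 2 a positive log2 change, with a median of -0.74, beside -0.03 over all genes. The urothelium markers summed to 111, 113 and 112 TPM in wild-type GW4064 kidneys and 146, 144 and 132 in wild-type vehicle kidneys, with 0 of 7 tested past the threshold. All 7 had a negative change, with a median of -0.77. For proximal tubule markers the sums were 77221, 74522 and 79894 TPM in wild-type GW4064 kidneys and 66106, 67002 and 66411 in wild-type vehicle kidneys. Such a sum is weighted toward the most abundant markers. Of the 19 tubule markers, 3 were higher and 1 lower (21.1%, against 4.80% of all genes). By sign, 11 had a positive and 8 a negative log2 change, with a median of 0.04, beside -0.03 over all genes. The part of fat, urothelium and tubule cells in these calls was not tested beyond the fat covariate.

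Marker lists of other cell types are read here against all tested genes, of which 18.5% were called in the knockout under GW4064 (7.08% higher and 11.4% lower) and 12.9% on vehicle (3.19% higher and 9.73% lower). The immune markers summed to 327, 301 and 260 TPM in knockout GW4064 kidneys, 300, 293 and 446 in knockout vehicle kidneys, 201, 197 and 222 in wild-type GW4064 kidneys and 221, 206 and 215 in wild-type vehicle kidneys. Of 8 tested, 2 were higher in the knockout under GW4064 (Lyz2 and Cd74, 25.0%) and 4 on vehicle (50.0%), while the B-cell markers Cd79a and Ms4a1 were under 1 TPM in every library. In knockout GW4064 kidneys the fat markers summed to 337, 210 and 247 TPM, and 1 of 8 was higher than in wild-type GW4064 kidneys (Lipe, 12.5%). The urothelium markers there summed to 177, 128 and 130 TPM, and 1 of 7 was higher (Krt7, 14.3%). These shares lay below the 18.5% of all genes called in either direction and above the 7.08% called higher. All 8 tested fat markers and all 7 tested urothelium markers had a positive change there. Their median log2 changes were 0.71 and 0.62, beside -0.03 over all genes. Of the 19 proximal tubule markers, 2 were higher and 9 lower in the knockout under GW4064 (57.9%). By sign, 6 of these 19 had a positive and 13 a negative change, with a median of -0.19. Of 7 podocyte markers, 3 were lower under GW4064 (42.9%) and 4 on vehicle (57.1%). Of 8 endothelial markers, 2 were higher and 2 lower under GW4064 (50.0%), and 5 were lower on vehicle (62.5%). Of 11 collecting duct markers, 1 was lower under GW4064 (9.09%), and 1 was higher and 3 lower on vehicle (36.4%). With the fat score as covariate, 16 of the 44 transferase genes were called in the knockout under GW4064, and the part of the other cell types was not tested.

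Of 16 tested genes for UDP-glucuronate and PAPS supply, 3 rose and 1 fell with GW4064 in the wild type, and 1 was higher and 5 lower in the knockout under GW4064. That is 25.0% with GW4064 in the wild type, against 4.80% of all tested genes, and 37.5% in the knockout under GW4064, against 18.5% of all. Slc13a1, the sodium-sulfate cotransporter of the proximal tubule, had 563, 535 and 568 TPM in knockout GW4064 kidneys, 552, 574 and 668 in knockout vehicle kidneys, 1345, 1165 and 1142 in wild-type GW4064 kidneys and 431, 478 and 483 in wild-type vehicle kidneys. Papss2, which makes PAPS, had 318, 347 and 342 TPM in knockout GW4064 kidneys, 353, 349 and 353 in knockout vehicle kidneys, 556, 538 and 514 in wild-type GW4064 kidneys and 325, 362 and 371 in wild-type vehicle kidneys. For both genes the wild-type GW4064 group stood above all other libraries. Slc13a1 rose by 1.39 ± 0.08 (adjusted p = 1.9e-06) and Papss2 by 0.61 ± 0.05 (adjusted p = 7.5e-05) with GW4064 in the wild type, and Slc35a3, a UDP-N-acetylglucosamine carrier, rose by 0.19 ± 0.04 (adjusted p = 0.0291), a call lost in 7 of 25 other settings. The difference in GW4064 effect was -1.49 ± 0.11 (adjusted p = 6.5e-05) for Slc13a1 and -0.68 ± 0.08 (adjusted p = 9.3e-04) for Papss2.

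Ugdh, which makes UDP-glucuronic acid, had 161, 143 and 164 TPM in knockout GW4064 kidneys, 121, 131 and 125 in knockout vehicle kidneys, 111, 116 and 109 in wild-type GW4064 kidneys and 138, 140 and 143 in wild-type vehicle kidneys. The means stood in the same order as for Gstm1, with knockout GW4064 kidneys highest and wild-type GW4064 kidneys lowest, and the lowest knockout GW4064 value met the highest wild-type vehicle value. Ugdh fell by 0.32 ± 0.05 (adjusted p = 0.00565) with GW4064 in the wild type and was higher in the knockout under GW4064 by 0.47 ± 0.05 (adjusted p = 1.2e-04). The difference in GW4064 effect was 0.63 ± 0.08 (adjusted p = 0.00168).

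Of 13 tested glutathione supply genes, 3 rose and 1 fell with GW4064 in the wild type, and 3 were higher and 5 lower in the knockout under GW4064. The shares called were 30.8% in the wild type, against 4.80% of all genes, and 61.5% in the knockout under GW4064, against 18.5%. Gclm, the modifier subunit of glutamate-cysteine ligase, rose by 0.43 ± 0.05 (adjusted p = 7.6e-04) with GW4064 in the wild type. Gsr, glutathione reductase, rose by 0.42 ± 0.06 (adjusted p = 0.00226) and Slc1a1, a glutamate and cysteine transporter, by 0.21 ± 0.05 (adjusted p = 0.0481), while Idh1, an NADPH source, fell by 0.26 ± 0.05 (adjusted p = 0.0189). The Slc1a1 call was lost in 13 of 25 other settings and the Idh1 call in 6. Gclc, the catalytic subunit, had 332, 224 and 285 TPM in knockout GW4064 kidneys, 237, 234 and 219 in knockout vehicle kidneys, 188, 209 and 206 in wild-type GW4064 kidneys and 215, 202 and 218 in wild-type vehicle kidneys. It was higher in the knockout under GW4064 by 0.47 ± 0.11 (adjusted p = 0.0118), a call lost without wild-type GW4064 library 1, and GW4064 in the wild type gave -0.08 ± 0.11 (adjusted p = 0.755). Pgd, of the pentose phosphate pathway, was higher by 0.66 ± 0.09 (adjusted p = 4.9e-04) in the knockout under GW4064. On vehicle 0 genes of this list were higher and 5 were lower in the knockout (Idh1, Gss, Cbs, Cth and Gsr), which is 38.5%, against 12.9% of all genes.

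The mercapturate pathway turns glutathione conjugates into mercapturic acids for excretion. Of its 19 tested genes, 3 rose and 0 fell with GW4064 in the wild type, and 1 was higher and 8 lower in the knockout under GW4064. With GW4064 in the wild type 15.8% were called, against 4.80% of all genes, and in the knockout under GW4064 47.4%, against 18.5%. The gamma-glutamyl transferase genes Ggt6 and Ggt1 rose by 0.70 ± 0.10 (adjusted p = 0.0019) and 0.26 ± 0.05 (adjusted p = 0.0133), and Nat8f1, of the Nat8 family of N-acetyltransferases, by 0.62 ± 0.13 (adjusted p = 0.0172). The Nat8f1 call was lost without wild-type GW4064 library 1 or wild-type vehicle library 1 or 3 (adjusted p up to 0.0756). Nat8f1 had 120, 166 and 124 TPM in knockout GW4064 kidneys, 182, 134 and 180 in knockout vehicle kidneys, 602, 542 and 564 in wild-type GW4064 kidneys and 364, 372 and 375 in wild-type vehicle kidneys. The genotypes did not overlap. The change in the knockout was -2.07 ± 0.13 (adjusted p = 1.4e-06) under GW4064 and -1.18 ± 0.13 (adjusted p = 2.9e-04) on vehicle. Nat8 genes are close copies, so the split between them is uncertain.

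Of 23 tested genes for other conjugation and detoxification steps, 3 rose with GW4064 in the wild type (13.0%, against 4.80% of all genes), and 4 were higher and 8 lower in the knockout under GW4064 (52.2%, against 18.5% of all genes). The epoxide hydrolase gene Ephx2 rose by 0.32 ± 0.06 (adjusted p = 0.0102) with GW4064 in the wild type, and the acyl-CoA synthetase gene Acsm3 by 0.48 ± 0.11 (adjusted p = 0.0269). The call of Ephx2 was lost without wild-type vehicle library 3, and that of Acsm3 in 6 of 25 other settings. Of 16 conjugate transporters 3 rose and 1 fell with GW4064 in the wild type (25.0%), where the organic solute transporter genes Slc51a and Slc51b rose by 3.43 ± 0.12 (adjusted p = 9.2e-08) and 2.80 ± 0.13 (adjusted p = 6.5e-07). The canalicular pump gene Abcc2 rose by 0.56 ± 0.12 (adjusted p = 0.021), a call lost without wild-type GW4064 library 1 or 2 or any 1 wild-type vehicle library, and the efflux pump gene Abcc4 fell by 0.68 ± 0.12 (adjusted p = 0.00671). Of 9 deconjugating enzymes 0 changed with GW4064 in the wild type by limma's test (2 at an unadjusted p under 0.05). Under GW4064 and on vehicle alike, 2 of the 9, Arsb and Ces2c, were higher in the knockout and 0 were lower (22.2%). Of all genes 18.5% were called under GW4064 (7.08% higher) and 12.9% on vehicle (3.19% higher). Of 19 relatives of the transferases 1 rose with GW4064 in the wild type, the channel gene Clic4, by 0.87 ± 0.05 (adjusted p = 2.1e-06), and 1 fell, the tyrosylprotein sulfotransferase gene Tpst2, by 0.24 ± 0.06 (adjusted p = 0.0381), a call lost in 15 of 25 other settings. These are 10.5% of the relatives.

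Among 22 tested genes known as NRF2 targets outside the transferases, some of which also stand on the lists above, 12 were higher and 3 lower in the knockout under GW4064 (68.2%, against 18.5% of all genes, 7.08% higher and 11.4% lower). On vehicle 4 were higher and 3 lower (31.8%, against 12.9% of all genes), and with GW4064 in the wild type 3 rose and 2 fell (22.7%, against 4.80% of all genes). Nqo1, a quinone reductase that overlaps Mir5098 on the opposite strand, had 302, 213 and 261 TPM in knockout GW4064 kidneys, 178, 217 and 178 in knockout vehicle kidneys, 132, 137 and 116 in wild-type GW4064 kidneys and 143, 153 and 180 in wild-type vehicle kidneys. All knockout GW4064 values lay above all 6 wild-type values. Nqo1 was higher in the knockout under GW4064 by 1.00 ± 0.13 (adjusted p = 2.7e-04), and the difference in GW4064 effect was 0.73 ± 0.18 (adjusted p = 0.0549). Srxn1, sulfiredoxin, had 119, 98.1 and 103 TPM in knockout GW4064 kidneys, 76.5, 73.0 and 81.3 in knockout vehicle kidneys, 52.7, 48.7 and 45.2 in wild-type GW4064 kidneys and 55.1, 60.1 and 60.4 in wild-type vehicle kidneys. Srxn1 was higher in the knockout under GW4064 by 1.11 ± 0.08 (adjusted p = 3.8e-06), with a difference in GW4064 effect of 0.72 ± 0.11 (adjusted p = 0.00532). Txnrd1, thioredoxin reductase, was higher by 0.71 ± 0.06 (adjusted p = 1.3e-05), while Osgin1 and Gsr were lower, with changes of -1.68 ± 0.27 (adjusted p = 0.0014) for Osgin1 and -0.37 ± 0.06 (adjusted p = 0.0017) for Gsr.

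**Figure D5:**
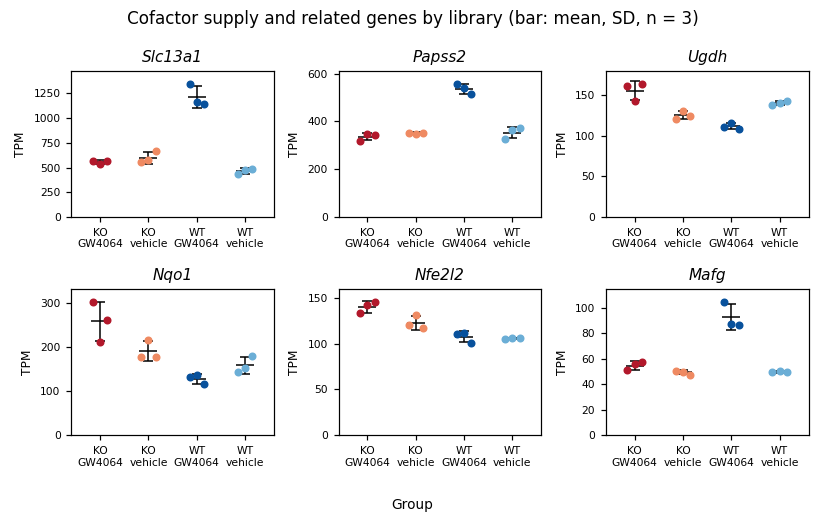
TPM by library for 6 genes of donor supply, related pathways and their regulators, with each panel starting at 0, points for the 3 libraries of a group, and bars for mean and SD. Slc13a1 and Papss2 stand apart in the wild-type GW4064 group, while Ugdh is highest in the knockout GW4064 group.

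Of 23 regulators of phase II genes, 2 rose and 2 fell with GW4064 in the wild type (17.4%, against 4.80% of all genes), and 6 were higher and 5 lower in the knockout under GW4064 (47.8%, against 18.5% of all genes). Nfe2l2, which encodes NRF2, had 133, 142 and 145 TPM in knockout GW4064 kidneys, 120, 131 and 117 in knockout vehicle kidneys, 110, 112 and 101 in wild-type GW4064 kidneys and 105, 106 and 106 in wild-type vehicle kidneys. All 6 knockout values lay above all 6 wild-type values. Nfe2l2 was higher in the knockout by 0.38 ± 0.05 (adjusted p = 4.8e-04) under GW4064 and by 0.21 ± 0.05 (adjusted p = 0.0258) on vehicle, and the vehicle call was lost without any 1 wild-type vehicle library or knockout vehicle library 2. Keap1, which targets NRF2 for degradation, passed in no comparison, with 0.05 ± 0.07 (adjusted p = 0.694) for the knockout under GW4064. Mafg, which encodes a small Maf partner of NRF2, had 51.0, 55.6 and 57.1 TPM in knockout GW4064 kidneys, 50.4, 49.8 and 47.5 in knockout vehicle kidneys, 104, 86.7 and 86.5 in wild-type GW4064 kidneys and 49.2, 50.0 and 49.3 in wild-type vehicle kidneys. It rose by 0.89 ± 0.07 (adjusted p = 3.3e-05) with GW4064 in the wild type. Nr1i2, the gene of the xenobiotic receptor PXR, had 11.8, 14.6 and 13.6 TPM in knockout GW4064 kidneys, 11.6, 14.5 and 11.9 in knockout vehicle kidneys, 26.1, 27.2 and 19.4 in wild-type GW4064 kidneys and 7.90, 8.01 and 7.84 in wild-type vehicle kidneys. It rose by 1.54 ± 0.13 (adjusted p = 4.9e-05) with GW4064 in the wild type, where Ppara, a lipid-sensing receptor gene, fell by 0.42 ± 0.08 (adjusted p = 0.0104).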

How the data were processed

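Total RNA was prepared with Trizol and sequenced from TruSeq Stranded Total RNA Gold libraries, per the labels' protocols. HISAT2, StringTie and Cufflinks and the build mm10 come from the submitters' processing notes. No source used here gives their versions, the annotation or the use of strand in counting. The authors deposited per-gene TPM, FPKM and coverage for each library. TPM was the unit tested, deposited FPKM was an alternative, and the median ratio of the deposited coverage signal to FPKM gave the mapped bases quoted as depth. TPM holds no read counts, so no counting intervals are given.

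Of 24532 gene IDs, 24462 had a symbol. Genes at 1 TPM or more in at least 3 of 12 libraries (14488) were tested with limma 3.58.1 in R 4.3.3 on log2(TPM + 0.5), a scale that understates changes of low genes. The fit had 1 mean per group, all 12 libraries, a variance trend and no covariate. Benjamini-Hochberg adjustment ran over all tested genes, with a call at adjusted p below 0.05. Changes are log2 with SE, and the difference in GW4064 effect is knockout minus wild type. The fit was tested on simulated data. Python 3.11.15, pandas 2.3.3, numpy 2.4.6 and matplotlib 3.10.9 were used for the rest.

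The members and gene lists were chosen with earlier results of these data known. Every library value is given for Gsta3, Gstm1, each called member and the most abundant member of each subfamily. List genes were named where 5 or fewer were called, otherwise the 2 of lowest p in each direction, with some fixed by name. Promoter sequences are from RefSeq, GRCm38.p6. Shared stretches are runs of 100 bases found in annotated GENCODE transcripts of more than 1 member. The alternatives were other pseudocounts, filters, scalings, variance models and gene sets, FPKM, a fat marker covariate, a replicate block, only the groups compared, and each library left out in turn. Some genes of the lists are counted but not reported here by name.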

Additional observations from a re-analysis of the deposited data

Results flagged for a closer look

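For 5 genes the effect of GW4064 differed between knockout and wild-type kidneys by a direct test of the difference in limma. The knockout effect minus the wild-type effect was 0.64 for Gstm1, 0.54 for Gstp1, 0.46 for Gstp2 and 0.76 for Ugt1a6b on the log2 scale. For Ugt3a1 it was -0.44, a call lost in most other settings. Those of Gstp2 and Ugt1a6b were lost in some, while those of Gstm1 and Gstp1 passed in each. The count of genes ranged over 2 to 9 when each library was left out in turn.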

How the results depend on the processing

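Across the alternatives no call changed direction. For GW4064 in the wild type the 6 transferase calls became 3 without a filter on low values, 3 with median-of-ratios scaling, 1 with the fat marker covariate and 2 without the variance trend, and 1 to 9 when each library was left out. The 0 calls for GW4064 in the knockout ranged over 0 to 1, the 8 on vehicle over 5 to 8 and the 18 under GW4064 over 14 to 19. The 5 differences in GW4064 effect became 3 with the fat covariate and 3 without the variance trend, and 2 to 9 when each library was left out. Over all genes, the 696 calls for GW4064 in the wild type became 428 with the fat covariate and 334 to 768 with libraries left out (334 without wild-type GW4064 library 1). The 2 calls for GW4064 in the knockout became 1 with a pseudocount of 0.1, median-of-ratios scaling, quantile normalization, FPKM or array weights, and 0 without the trend, with the replicate block or with only the groups compared. With libraries left out they ranged over 0 to 51, with 51 without knockout GW4064 library 2 and 31 without knockout vehicle library 2. The calls on vehicle ranged over 926 to 1903 (926 without wild-type vehicle library 3) and those under GW4064 over 1726 to 2760 (1726 without wild-type GW4064 library 1). The 462 differences in GW4064 effect became 207 with the fat covariate and ranged over 216 to 535 (216 without wild-type GW4064 library 1). Why these counts moved was not tested.

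Deviations from group means showed no pairing of the libraries by replicate number. They correlated at -0.07 to 0.08 over 18 same-numbered pairs, 0 of them over 0.1, and at -0.11 to 0.13 over 36 other pairs. Replicate 3 had the most genes above 0 in each group. These were 16910 in knockout GW4064, 17186 in knockout vehicle, 17025 in wild-type GW4064 and 16985 in wild-type vehicle kidneys. The mapped gigabases of replicate 3 were 3.33, 4.27, 3.85 and 3.32 in the same order. They were the most of each group except wild-type vehicle, where replicate 2 had 3.34. Whether the replicate numbers mark a shared batch was not tested, nor was the part of depth in the gene counts. With the replicate block the transferase counts were 18 for the knockout under GW4064, 8 for the knockout on vehicle, 0 for GW4064 in the knockout, 5 for GW4064 in the wild type and 6 for the difference in GW4064 effect. Over all genes they were 2633, 1785, 0, 675 and 442 in the same order.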
